A study of Mus musculus with 6 samples.

Results

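Ccl6, Ccl9, Ccl3, Ccl4, Cxcl2 and Cxcl16 are 6 chemokine genes known to be expressed by neutrophils, and they were taken by name from the 51789 genes of a count table of mouse bone marrow neutrophils. All 6 had counts in every library and all 6 passed the filter on low counts. The neutrophils were isolated with beads against Ly6G, a surface protein of mouse neutrophils, to a stated purity above 95%, and their polyadenylated RNA was read with Lexogen QuantSeq, which gives a short tag near the 3′ end of each transcript. There were 3 libraries labelled WT (Snph control) and 3 labelled KO for Snph, the gene of syntaphilin, which anchors mitochondria to microtubules. The labels give no allele, strain, age, sex or treatment, and no driver or deleted part for the knockout. Nor do they tell whether each replicate is its own animal; p-values therefore cover the spread among these libraries, which may be technical. The series title names neutrophil migration in cancer as its subject.

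Snph itself had 0, 0 and 0 counts in WT 1 to 3 and 5, 2 and 8 counts in KO 1 to 3, which goes against the labels. Since the deleted part is not given, a 3′ tag of Snph does not settle them, and every direction below is that of the libraries labelled KO against those labelled WT. Total counts were 7018388 to 9664381 per library, so that 1 count was worth 0.102 to 0.147 CPM, the usual depth-scaled count, here scaled by TMM factors. Libraries are named WT 1 to WT 3 and KO 1 to KO 3 by their labels.

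Chemokines are small secreted proteins that guide leukocytes along gradients by binding receptors with membrane-spanning helices coupled to G proteins. CC and CXC chemokines are told apart by the spacing of their first cysteines. Neutrophils both follow chemokines, mainly through Cxcr2 and Ccr1, and make them: Cxcl2 recruits further neutrophils through Cxcr2, Ccl3 and Ccl4 recruit monocytes and lymphocytes, Ccl6 and Ccl9 are rodent ligands of Ccr1, and Cxcl16 is a membrane-bound chemokine that can be shed and binds Cxcr6. In myeloid cells several of these genes are switched on quickly by NF-kappa B, and their transcripts can be short-lived where the 3′ UTR is rich in the letters ATTTA, which are recognised in the RNA by the tristetraprolin family of decay proteins.

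Ccl9, Ccl6, Ccl3 and Ccl4 lie together in a stretch of 91.8 kb on mouse chromosome 11, whereas Cxcl16 lies elsewhere on that chromosome and Cxcl2 on chromosome 5. In GRCm38, the assembly that mm10 names, the GENCODE vM21 genes are Ccl9 at chr11:83572919-83578636 (minus strand), Ccl6 at chr11:83587882-83593087 (minus), Ccl3 at chr11:83647844-83649355 (minus), Ccl4 at chr11:83662584-83664683 (plus), Cxcl16 at chr11:70453983-70459984 (minus) and Cxcl2 at chr5:90903871-90905938 (plus). Ccl6 lies within the span of E230016K23Rik on the other strand, with 0 shared exon bases. Cxcl16 shares 552 exon bases with Zmynd15 on the other strand (70459433-70466202, plus), at the 5′ end of both genes. With no strand setting given in the sources at hand, reads within that stretch cannot be told apart. Tags near the 3′ end of either annotated gene would lie outside it. Zmynd15 had 2, 0, 2, 1, 1 and 4 counts in the same library order. Of the 50-base words in the annotated transcripts, 0 of 1743 in Ccl6, 0 of 717 in Ccl3 and 0 of 611 in Ccl4 also occurred in another gene. The shares were 1.97% in Ccl9, 5.84% in Cxcl2, all with its close paralog Cxcl3, and 16.92% in Cxcl16, all with Zmynd15.

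The 120 bases before the start site are shown for the 4 members found in the RefSeq promoter table (GRCm38.p6). These stretches differ in exact matches to the kappa B letters, named for NF-kappa B, and to the letters TATAAA. Sequences run 5′ to 3′ on the gene's strand, and capitals mark matches to GGGNNTTTC (kappa B) or TATAAA on either strand. Ccl4 and Cxcl16 were matched to no promoter. Distances are counted from the RefSeq start, which is that of the GENCODE gene in Ccl9 and Ccl6. It lies downstream of the GENCODE start in Cxcl2, so that the last bases shown there fall inside the GENCODE gene, and upstream of it in Ccl3. The regions are chr5:90903779-90903898 (plus) for Cxcl2, chr11:83578637-83578756 (minus) for Ccl9, chr11:83593088-83593207 (minus) for Ccl6 and chr11:83649379-83649498 (minus) for Ccl3.
Cxcl2: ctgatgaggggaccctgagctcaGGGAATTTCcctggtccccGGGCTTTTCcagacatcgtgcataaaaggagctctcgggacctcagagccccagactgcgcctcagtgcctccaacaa
Ccl9: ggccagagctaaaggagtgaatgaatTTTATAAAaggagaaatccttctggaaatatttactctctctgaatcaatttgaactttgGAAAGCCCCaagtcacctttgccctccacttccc
Ccl6: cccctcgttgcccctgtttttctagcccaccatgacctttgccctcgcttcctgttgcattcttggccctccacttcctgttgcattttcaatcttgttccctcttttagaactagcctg
Ccl3: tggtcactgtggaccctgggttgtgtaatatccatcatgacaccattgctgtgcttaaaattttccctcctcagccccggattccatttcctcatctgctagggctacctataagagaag

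The letters to search were chosen after the sequences had been seen, and a match is a description of letters. Over the 250 bases before the start, GGGNNTTTC matched 2 times in Cxcl2, at 97 to 89 and 78 to 70 bases before the start, and 1 time in Ccl9, at 34 to 26 bases, and 3.72% of 32851 mouse promoters held it. TATAAA was found in Ccl9 and in 12.37% of promoters. In Ccl9 it lay 92 to 87 bases before the start, and on the other strand at 94 to 89 and 224 to 219 bases. Only exact matches were counted, so that near matches such as cataaa in Cxcl2 and tataag in Ccl3 were not. The AP-1 letters TGANTCA were found in Ccl9 and in 6.75% of promoters, the ETS letters ACTTCC in Ccl9, Ccl6 and Ccl3 and in 19.74% of promoters, and the C/EBP letters TTGCNNAA in none of these 4 members and in 9.56% of promoters. The kappa B letters were thus shared by Cxcl2, the second most abundant of the 6 transcripts, and Ccl9, the second least abundant.

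Stretches of 30 bases of 3′ UTR with the most ATTTA are shown for Ccl6, Cxcl2 and Ccl3, the 3 most abundant members, which differ in this feature; capitals mark ATTTA, and positions count from the first base after the stop codon in GENCODE vM21. They are bases 123 to 152 in Cxcl2, 139 to 168 in Ccl3 and 65 to 94 in Ccl6.
Cxcl2: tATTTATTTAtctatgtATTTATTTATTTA
Ccl3: gactcttcacttgaaattttATTTAATTTA
Ccl6: ccttgtttttatagatATTTAaagcATTTA

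Cxcl2 held 11 ATTTA in its 734-base 3′ UTR, with 4 matches, overlaps counted, to the longer word ATTTATTTA. Of 1377 tested genes with a 3′ UTR of 75% to 125% of that length, 0.07% held as many, a share that Cxcl2 alone made up. Each share among genes of like length counts the member itself. Ccl3 held 5 in 409 bases, as many as in 0.47% of 1057 genes of like length. Ccl4 held 2 in 302 bases and Ccl6 held 4 in 943 bases, as many as in 10.71% of 943 and 13.02% of 1529 genes of like length. Ccl9, with 5 in 2465 bases, and Cxcl16, with 2 in 1421 bases, were near the middle, at 42.53% and 60.01%. ATTTATTTA was found in 5.51% of 9426 tested genes with an annotated 3′ UTR, and among the 6 chemokine genes in Cxcl2 alone.

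**Figure D1:**
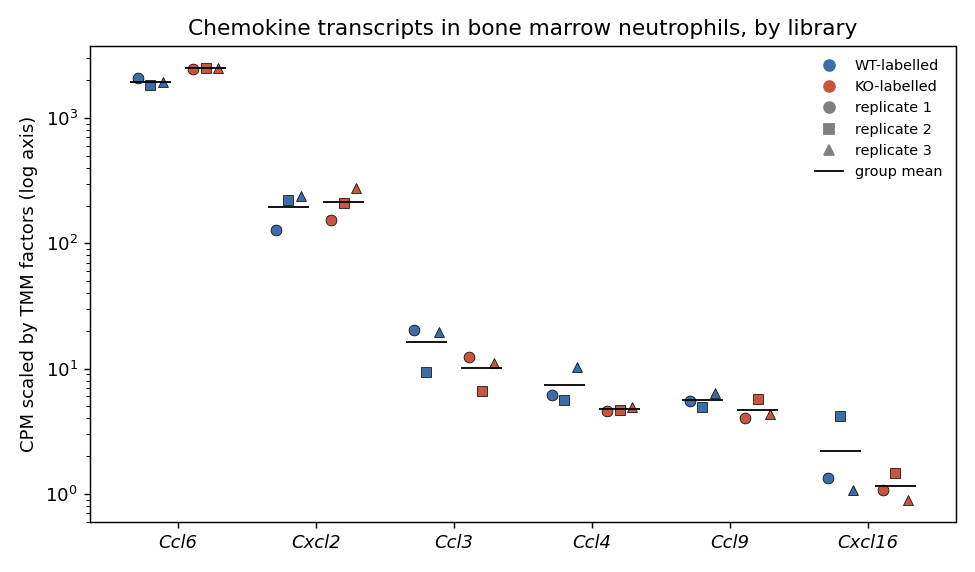
Level of each of the 6 chemokine genes in each library, in CPM scaled by TMM factors on a log axis, with the replicate number as the marker shape, the label as the colour and a bar at each group mean. Ccl6 lies between 1826 and 2531 CPM and Cxcl2 between 128 and 279 CPM, and the other 4 genes lie at or below 20.2 CPM.

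Ccl6 was by far the most abundant of the 6, at a mean of 2225 CPM over the 6 libraries, rank 26 of all genes in the table. Cxcl2 followed at 205 CPM (rank 611), Ccl3 at 13.2 CPM (rank 5301), Ccl4 at 6.05 CPM (rank 7027), Ccl9 at 5.15 CPM (rank 7381) and Cxcl16 at 1.68 CPM (rank 9732). As each transcript gives a tag near its 3′ end, these levels are per tag and were not divided by length. The ranges of Ccl6 and Cxcl2 did not meet, and neither did those of Cxcl2 and Ccl3. The ranges of Ccl3 and Ccl4, of Ccl4 and Ccl9 and of Ccl9 and Cxcl16 overlapped, although within a library Ccl3 was above Ccl4 in 6 of 6, Ccl4 above Ccl9 in 5 of 6 and Ccl9 above Cxcl16 in 6 of 6. The spread over all libraries differed as well: the highest library exceeded the lowest 1.39-fold for Ccl6, 1.57-fold for Ccl9, 2.18-fold for Cxcl2, 2.26-fold for Ccl4, 3.06-fold for Ccl3 and 4.69-fold for Cxcl16.

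Ccl6 alone took 82.4% to 87.3% of the counts of 37 chemokine ligand genes in the WT-labelled libraries and 87.4% to 90.1% in the KO-labelled libraries. The exact Clopper-Pearson 95% intervals were 81.8% to 83.0% for WT 3, the lowest, and 89.7% to 90.5% for KO 1, the highest; they cover counting error only. WT 1, at 87.3% (86.9% to 87.8%), and KO 3, at 87.4% (87.0% to 87.8%), had intervals that overlapped. The 6 genes together held 0.210% to 0.277% of all counts.

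Between the groups, Ccl6 rose in the KO-labelled libraries and none of the other 5 chemokine genes passed the test. Across all 10397 genes tested, edgeR's quasi-likelihood test with Benjamini-Hochberg adjustment called 1.03% in either direction at an adjusted p under 0.05, 0.24% higher and 0.789% lower in the KO-labelled libraries. Groups of 3 libraries that did not overlap were common: 16.8% of tested genes, 7.48% with the KO-labelled libraries above and 9.32% with them below. Among the 6 chemokine genes 1 was called higher and 0 lower, and the groups of 2 did not overlap, Ccl6 with KO above and Ccl4 with KO below. Each of these shares rests on 1 gene. The median log2 fold change was -0.44 over the 6 and 0.01 over all tested genes. In bulk RNA, fewer cells of a type and less RNA per cell cannot be told apart.

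Ccl6 read 2075, 1826 and 1934 CPM in WT 1 to 3 and 2461, 2524 and 2531 CPM in KO 1 to 3. Every KO-labelled library was above every WT-labelled library, and the KO-labelled libraries were the more alike. The means were 1945 ± 125 CPM (SD, n = 3) and 2505 ± 38.6 CPM (SD, n = 3). The log2 fold change was 0.37 (SE 0.07; 95% interval 0.22 to 0.51), a 1.29-fold rise, with an adjusted p of 0.0126 by edgeR's quasi-likelihood test. It was above 0 in all 14 alternative fits, from 0.26 to 0.42, and the adjusted p ran from 2.17e-06 to 0.0892. The call ended with library sizes scaled by total counts only (0.26, adjusted p = 0.0632), without WT 2 (0.32, adjusted p = 0.0892) and without KO 2 (0.36, adjusted p = 0.0526).

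Ccl9, the other rodent Ccr1 ligand of the set and the neighbour of Ccl6 on chromosome 11, read 5.52, 4.90 and 6.33 CPM in WT 1 to 3 and 4.04, 5.74 and 4.35 CPM in KO 1 to 3. The groups overlapped, and the range was narrow for counts of 30 to 48 per library. The log2 fold change was -0.25 (SE 0.27; 95% interval -0.82 to 0.33; adjusted p = 0.813, edgeR's quasi-likelihood test). That interval overlaps the one of Ccl6, so the difference between the 2 genes was also read as a ratio of their counts in each library, which does not depend on scaling. The Ccl6 to Ccl9 ratio was 376, 372 and 305 in WT 1 to 3 and 609, 440 and 581 in KO 1 to 3. All 3 KO-labelled libraries were above all 3 WT-labelled ones, with a log2 difference of 0.62 (exact two-sided permutation test p = 0.1, the smallest that 3 against 3 can give; adjusted p = 0.15 over the 3 ratios computed). The ratios were chosen after the values had been seen.

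**Figure D2:**
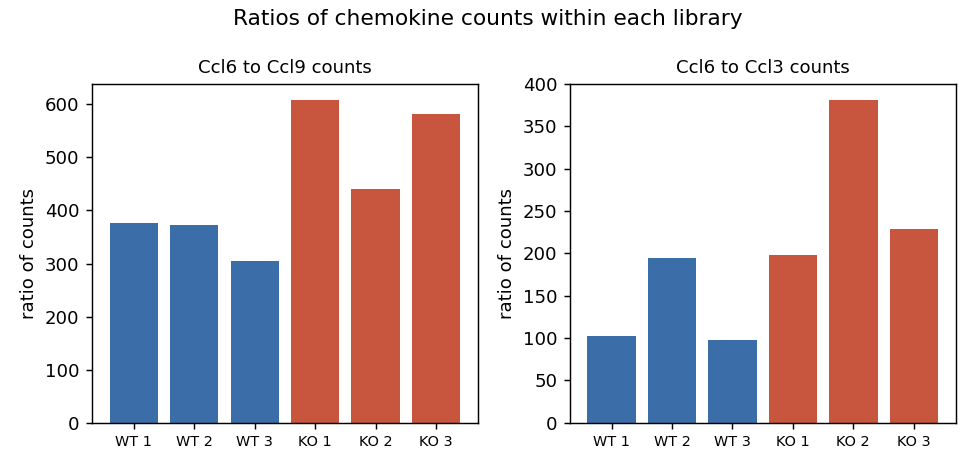
Ratio of the raw counts of Ccl6 to those of Ccl9 (left) and of Ccl3 (right) in each library, as bars from 0. Both ratios are higher in every KO-labelled than in every WT-labelled library, by the least margin between WT 2 (194) and KO 1 (198) on the right.

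Ccl3 and Ccl4, the neighbouring genes of macrophage inflammatory proteins 1-alpha and 1-beta, had lower means in the KO-labelled libraries, without passing the test. Ccl3 read 20.2, 9.40 and 19.7 CPM in WT 1 to 3 and 12.4, 6.62 and 11.05 CPM in KO 1 to 3. WT 1 and WT 3 were above all KO-labelled libraries, while WT 2 was below KO 1 and KO 3 and KO 2 was the lowest of all. The means were 16.4 ± 6.10 CPM (SD, n = 3) and 10.02 ± 3.02 CPM (SD, n = 3), a log2 fold change of -0.69 (SE 0.28; adjusted p = 0.350, edgeR's quasi-likelihood test; unadjusted p = 0.0257). With no filter on low counts, a setting that called many more genes in all, the value was -0.69 and the adjusted p 0.0362 (same test). It was -0.98 without WT 2 and -0.48 without KO 2.

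Ccl4 read 6.13, 5.62 and 10.4 CPM in WT 1 to 3 and 4.58, 4.71 and 4.91 CPM in KO 1 to 3. The groups did not overlap, and WT 3 stood above the other libraries. The log2 fold change was -0.63 (SE 0.28; 95% interval -1.22 to -0.03; adjusted p = 0.405, edgeR's quasi-likelihood test; unadjusted p = 0.0400), and without WT 3 it was -0.31. The Ccl3 to Ccl4 ratio was 3.30, 1.67 and 1.90 in WT 1 to 3 and 2.71, 1.41 and 2.25 in KO 1 to 3. These groups overlapped (exact two-sided permutation test p = 0.8; adjusted p = 0.8), and in each group the library numbered 1 had the highest ratio and the library numbered 2 the lowest. The direction of the log2 difference, -0.10, turned without WT 1 (0.20) and without KO 2 (0.17).

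The Ccl6 to Ccl3 ratio, which compares the 2 most abundant CC chemokines of the set, was 103, 194 and 98.3 in WT 1 to 3 and 198, 381 and 229 in KO 1 to 3. Every KO-labelled library was above every WT-labelled library, although KO 1 exceeded WT 2 only slightly. The log2 difference was 1.05 (exact two-sided permutation test p = 0.1, adjusted p = 0.15), and it ran from 0.77 to 1.37 when each library was left out. With 3 libraries against 3 a smaller p is not possible, so this test could not pass the threshold of 0.05. The ratio was chosen with the values known. It is made of the same counts as the fold changes of the 2 genes and is not a separate result.

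Cxcl2, the neutrophil attractant that signals through Cxcr2, read 128, 220 and 240 CPM in WT 1 to 3 and 153, 212 and 279 CPM in KO 1 to 3. The groups overlapped over nearly their whole range, and WT 1 and KO 1 were the low libraries. The means were 196 ± 60.0 CPM (SD, n = 3) and 214 ± 62.9 CPM (SD, n = 3), a log2 fold change of 0.13 (SE 0.21; adjusted p = 0.880, edgeR's quasi-likelihood test). The 95% interval, -0.31 to 0.57, leaves room for a change in either direction, and the sign turned without WT 1 (-0.10) and without KO 3 (-0.11). Cxcl1 and Cxcl3, which bind the same receptor, were nearly undetected, with 0, 2 and 2 counts of Cxcl1 in WT 1 to 3 and 0, 0 and 4 in KO 1 to 3, and 0, 0 and 1 counts of Cxcl3 in both groups.

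Cxcl16, the shed membrane chemokine, had 11, 41 and 8 counts in WT 1 to 3 and 8, 10 and 8 counts in KO 1 to 3. WT 2 stood apart at 4.19 CPM, and the other 5 libraries lay between 0.893 and 1.47 CPM. The log2 fold change of -0.98 (SE 0.58; adjusted p = 0.573, edgeR's quasi-likelihood test) rested on WT 2 and was -0.09 without it. Cxcr6, its receptor, had 6, 3 and 0 counts in the WT-labelled and 0, 0 and 0 counts in the KO-labelled libraries, below the filter.

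**Figure D3:**
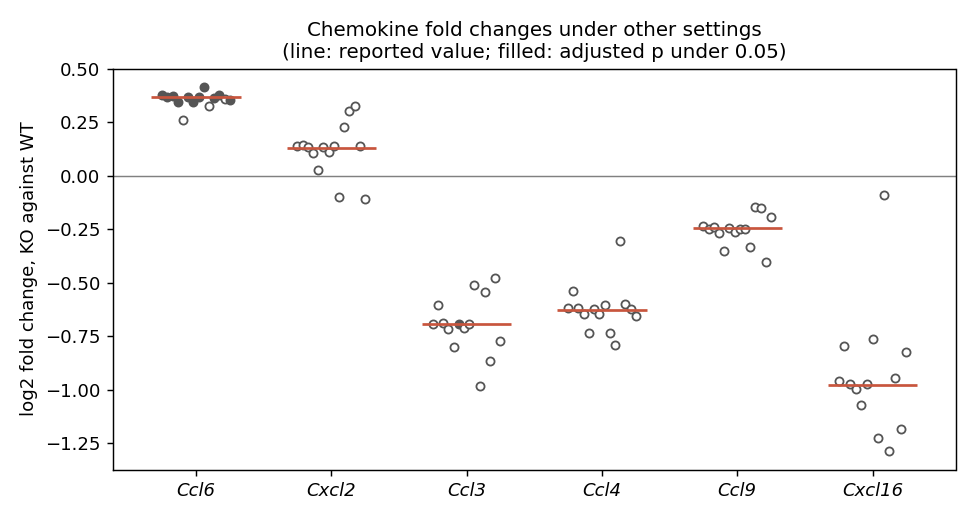
Log2 fold change of the 6 chemokine genes, KO-labelled against WT-labelled, with a line at the reported value and a point for each alternative fit, filled where the adjusted p is under 0.05. Ccl6 stays between 0.26 and 0.42, Ccl3, Ccl4, Ccl9 and Cxcl16 stay below 0 with 1 filled point for Ccl3, and Cxcl2 crosses 0.

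Most of the other chemokine ligands were too low in count to be tested, but Ppbp, Pf4 and Cxcl12 had means of 44.3, 39.5 and 10.6 CPM. Cxcl12 had a log2 fold change of 0.24 (adjusted p = 0.792, edgeR's quasi-likelihood test), and its groups overlapped. Of 31 ligand genes beyond the 6, 9 were at 0 counts throughout and 7 were tested, of which 0 were called higher and 2 lower, with a median log2 fold change of -0.62. Ppbp and Pf4, chemokines stored in platelet granules, were the 2 that fell. Ppbp read 61.3, 53.7 and 63.5 CPM in WT 1 to 3 and 37.1, 27.1 and 23.2 CPM in KO 1 to 3, without overlap (log2 fold change -1.03, SE 0.15, adjusted p = 0.00210, edgeR's quasi-likelihood test). Pf4 fell by 0.77 on the log2 scale (SE 0.16, adjusted p = 0.0282, same test), and its call ended when any of WT 1, WT 2, KO 2 and KO 3 was left out (adjusted p 0.0867 to 0.167). Both are also markers of megakaryocytes and platelets, a list of 14 of which 11 were tested and 4 called lower, Ppbp and Pf4 among them (1 without WT 1, 2 without KO 2 and 2 without KO 3). Its summed level was 484 to 546 CPM in the WT-labelled and 412 to 446 CPM in the KO-labelled libraries. Without Ppbp and Pf4 the sums were 376 to 426 CPM and 338 to 390 CPM, which overlap, and 8 of 9 tested members were below 0; the part of these markers in the result was not tested. Cxcl9, an interferon-induced ligand of Cxcr3, had 32, 55 and 43 counts in WT 1 to 3 and 1, 13 and 19 counts in KO 1 to 3. The groups did not overlap, and the log2 fold change was -1.85 (SE 0.52, adjusted p = 0.142, edgeR's quasi-likelihood test). Ccl2, the monocyte attractant, had at most 5 counts in a library.

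Of 24 receptor genes 9 were tested, 0 were called higher and 1 lower, and their median log2 fold change was 0.07. Cxcr2, the receptor of Cxcl2, had 361 ± 15.1 CPM (SD, n = 3) in the WT-labelled and 378 ± 30.2 CPM (SD, n = 3) in the KO-labelled libraries. Its log2 fold change was 0.07 (adjusted p = 0.838, edgeR's quasi-likelihood test), and -0.04 with total counts only. Ccr1, the receptor of Ccl6, Ccl9 and Ccl3, had 228 ± 2.70 and 247 ± 25.2 CPM (SD, n = 3 each), a log2 fold change of 0.12 (adjusted p = 0.679, same test). Cxcr4, which holds neutrophils in the marrow, had 314 ± 29.8 and 339 ± 34.1 CPM (SD, n = 3 each; 0.11, adjusted p = 0.733, same test).

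The receptor called lower was Ccr3, the eotaxin receptor of eosinophils. It read 39.3, 29.7 and 35.0 CPM in WT 1 to 3 and 12.7, 10.7 and 22.8 CPM in KO 1 to 3, and the groups did not overlap. The log2 fold change was -1.15 (SE 0.22, adjusted p = 0.0183, edgeR's quasi-likelihood test); the call ended when any library other than KO 3 was left out (adjusted p 0.0614 to 0.100). Ccr3 was also the 1 gene called lower among 7 tested of 11 eosinophil markers. Of the other 6 tested, 4 were above 0 and 2 below, with a median log2 fold change of 0.01. The summed level of the list without Ccr3 was 132 to 157 CPM in the WT-labelled and 121 to 149 CPM in the KO-labelled libraries, with overlap.

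**Figure D4:**
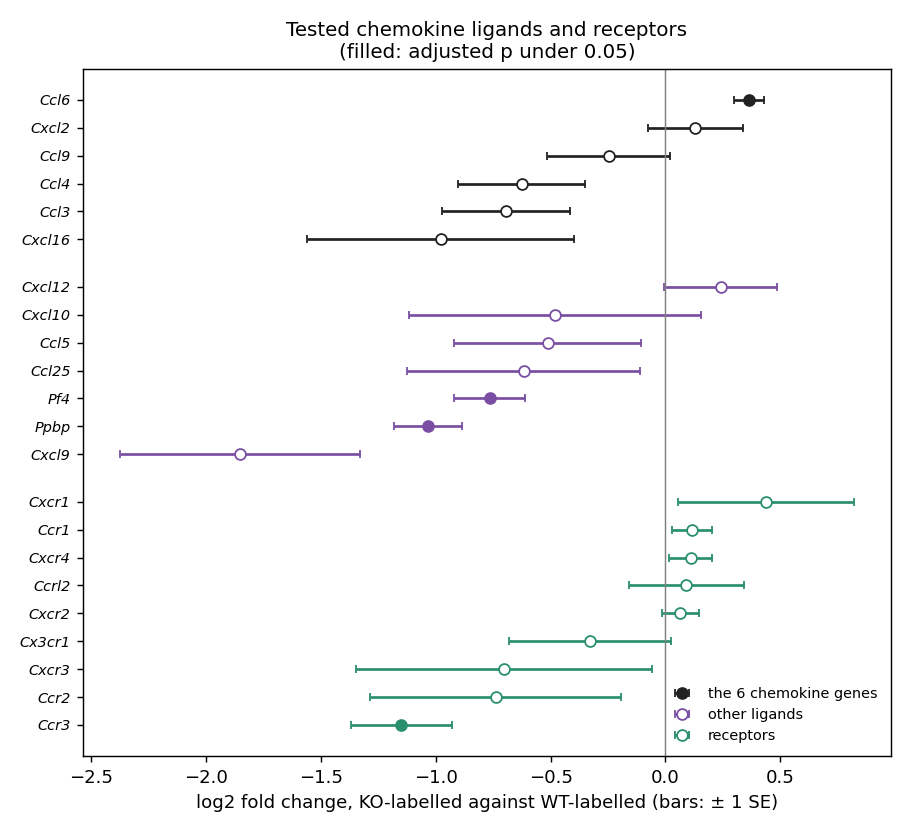
Log2 fold change, KO-labelled against WT-labelled, with bars of 1 SE on either side, for the tested genes among the 6 chemokine genes, the other ligands and the receptors; filled points have an adjusted p under 0.05 by edgeR's quasi-likelihood test. Ccl6 is filled above 0, and Pf4, Ppbp and Ccr3 are filled below 0.

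Genes of the early inflammatory response, such as cytokines, NF-kappa B inhibitors and immediate early transcription factors, are usually induced together with Cxcl2, Ccl3 and Ccl4 when neutrophils are stimulated. Of 49 such genes 42 were tested, 1 was called higher and 0 lower, and the median log2 fold change was 0.04. Socs3, an inhibitor of cytokine signalling, rose from 31.7 ± 3.87 to 52.9 ± 8.39 CPM (SD, n = 3 each; log2 fold change 0.74, SE 0.13, adjusted p = 0.0121, edgeR's quasi-likelihood test). Its call ended without WT 1 (adjusted p = 0.0750) and without KO 1 (adjusted p = 0.0525). Dusp1, a phosphatase of MAP kinases, and Nfkbia, the NF-kappa B inhibitor, were the most abundant at 1010 and 633 CPM. Their log2 fold changes were 0.37 and 0.40 (adjusted p = 0.606 and 0.370, same test), and the groups overlapped for both. Dusp1 read 604, 792.5 and 1244 CPM in WT 1 to 3 and 714, 1316 and 1388 CPM in KO 1 to 3. Nfkbia read 497, 490 and 647 CPM in WT 1 to 3 and 508, 961 and 693 CPM in KO 1 to 3. With no filter on low counts both were called (adjusted p = 2.08e-04 and 1.06e-04, same test), in a setting that called many more genes in all.

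Proteases that trim or shed chemokines were also read. Of 19 genes 16 were tested, 0 were called higher and 2 lower, with a median log2 fold change of -0.04. Ctsb, cathepsin B, fell by 0.70 on the log2 scale (SE 0.11, adjusted p = 0.00493, edgeR's quasi-likelihood test), a call that ended without WT 2 (adjusted p = 0.0536). Ctsc, the cathepsin that activates neutrophil serine proteases, fell by 0.83 (SE 0.16, adjusted p = 0.0176, same test), a call that ended when any library other than KO 3 was left out (adjusted p 0.0589 to 0.0960). Mmp9 and Mmp8, the abundant secreted metalloproteases of neutrophils, had log2 fold changes of 0.21 and 0.06 (adjusted p = 0.174 and 0.781, same test); that of Mmp8 was -0.05 with total counts only. Adam10 and Adam17, which can shed Cxcl16, had -0.03 and -0.0050 (adjusted p = 0.957 and 0.994, same test).

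**Figure D5:**
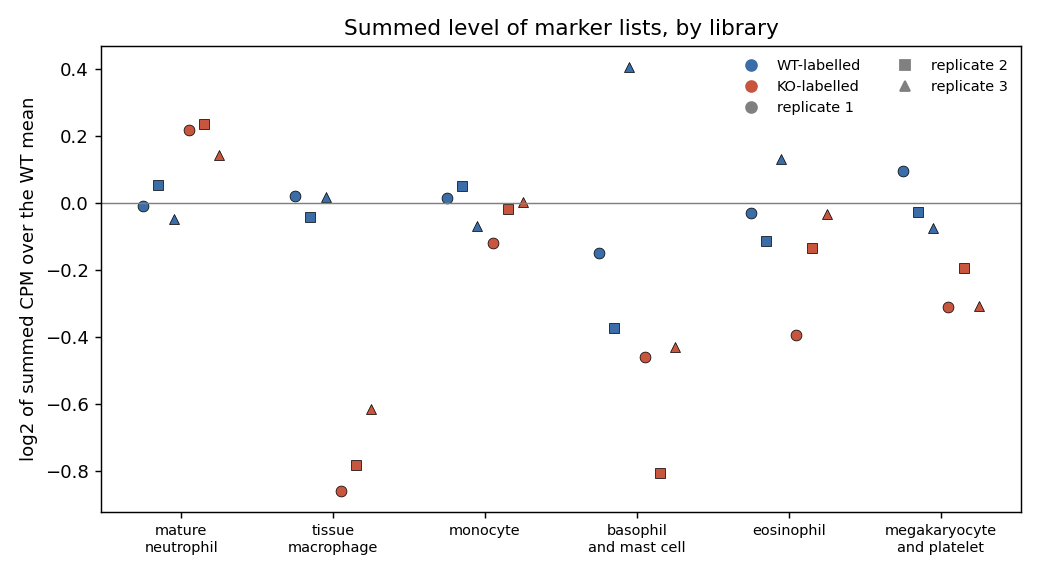
Summed CPM of 6 cell type marker lists in each library, as the log2 of its ratio to the mean of the WT-labelled libraries, with the replicate number as the marker shape. In all 3 KO-labelled libraries the tissue macrophage, the basophil and mast cell and the megakaryocyte and platelet sums are below those of all 3 WT-labelled libraries. The mature neutrophil sum is above them.

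Markers of other cells moved between the groups beside these genes, and several of the 6 chemokines are also expressed by macrophages, monocytes or basophils. Of 20 tissue macrophage markers 19 were tested and 15 called lower, and their summed level was 2179 to 2277 CPM in the WT-labelled and 1236 to 1462 CPM in the KO-labelled libraries. Of 25 mature neutrophil markers all 25 were tested and 3 were called higher (1 without WT 1 or without KO 1, 2 without WT 3 or without KO 2, 2 with total counts only or upper-quartile factors, 5 with DESeq2 and 6 with no filter), and their sum was 292300 to 313920 CPM against 333960 to 355830 CPM. S100a8 and S100a9, at means of 126610 and 105980 CPM, made up most of the neutrophil sum. Of the 25 markers 24 were above 0 and 1 below, with a median log2 fold change of 0.18. Ccl6 was higher in the libraries in which the neutrophil sum was higher and the macrophage sum lower. Ccl3 and Ccl4 had lower means in the same libraries; the part of these lists in any of the results was not tested.

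Of 15 neutrophil precursor markers 0 were called, with 6 above 0 and 9 below. Members were called lower in 3 alternative fits, 1 of them with total counts only. Ltf, Camp and Ngp, the most abundant of these markers, are also in the mature neutrophil list, so the lists are not independent. Of 12 monocyte markers 1 of 9 tested was called lower and 8 were below 0, with a median log2 fold change of -0.33. In 4 of them the KO-labelled libraries were below without overlap, against 9.32% of all tested genes. The monocyte sums were 3348 to 3639 CPM in the WT-labelled and 3232 to 3518 CPM in the KO-labelled libraries. Most of these sums came from Ly6c2 and Psap, at means of 1406.5 and 1824 CPM. Of 14 dendritic cell markers 1 of 7 tested was called lower and 6 were below 0, with sums of 205 to 254 CPM in the WT-labelled and 131 to 185 CPM in the KO-labelled libraries, without overlap. Of 15 basophil and mast cell markers 4 were tested and 0 called, with sums of 22.1 to 37.9 CPM against 16.3 to 21.2 CPM, without overlap. Mcpt4, Cma1, Tpsb2, Tpsab1 and Il6 had no count in any library and Fcer1a 3 counts in all. Of 15 B and plasma cell markers 3 of 13 tested were called higher, but 1 with DESeq2 or limma-voom, 2 without KO 2 and 0 when WT 1, WT 2 or WT 3 was left out. Their sums were 409 to 457 CPM in the WT-labelled libraries and 632, 1378 and 606 CPM in KO 1 to 3, so that KO 2 stood apart. Among T and NK cell markers 0 of 3 tested, and among erythroid markers 0 of 13 tested, were called.

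The genes whose levels ran most nearly parallel to each chemokine gene were found by Pearson's r of log2 CPM over the 6 libraries, among 5934 or 5935 other tested genes whose mean was 10 CPM or more; these are descriptions, since 6 libraries and the group difference are shared by all genes. Ccl6 ran with Srp14, a signal recognition particle subunit (r = 0.991), and Apoc2 (0.988). Ccl3 ran with Jun, an immediate early transcription factor (r = 0.996), and Lman1 (0.964). Jun read 103, 81.1 and 105 CPM in WT 1 to 3 and 88.4, 70.2 and 84.0 CPM in KO 1 to 3, so that WT 2 and KO 2 were the low libraries of their group for both genes. Ccl4 ran with Nnt (0.982) and Zfp36l1, of the tristetraprolin family (0.975). Ccl9 ran with Gngt2 (0.985) and Tubgcp4 (0.981), Cxcl2 with Trappc5 (0.988) and C230096K16Rik (0.986), and Cxcl16 with Anxa3 (0.987) and Ttc38 (0.974). The closest gene depended on the minimum level for some members. At a mean of at least 50 CPM it was Hsp90b1 for Ccl4 (0.968), Baz1b for Ccl9 (0.97) and C230096K16Rik for Cxcl2 (0.986). Srp14, Jun and Anxa3 stayed the closest for Ccl6, Ccl3 and Cxcl16.

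Within 100 kb of a member lay 38 other annotated genes, of which 10 were tested and 0 called. Those near the chromosome 11 cluster were Taf15 (log2 fold change -0.14), Ccl5, a T cell chemokine (-0.51), E230016K23Rik (-0.42), Heatr6 (0.05), Wfdc17 (0.79) and Wfdc21 (0.21). Wfdc21, at 3416 CPM, had an adjusted p of 0.189 and Wfdc17, at 102 CPM, of 0.222 (edgeR's quasi-likelihood test). With no filter and with a replicate block Wfdc17 was called (adjusted p = 6.86e-13 and 0.00759, same test). The setting with no filter called many more genes in all than the reported fit. Near Cxcl16 lay Pelp1 (-0.36), Arrb2, a regulator of chemokine receptors (0.11), Med11 (0.14) and Psmb6 (0.18).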

How the data were processed

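RNA of 6 libraries of Ly6G-selected mouse bone marrow neutrophils, 3 labelled WT and 3 labelled KO, was read with QuantSeq. The authors deposited a table of whole-number counts per Ensembl gene, not scaled between libraries. The submitters' processing notes list RSEM 1.2.3, DESeq2 and mm10 without a role. No aligner, annotation or strand setting is given in the sources used here. When reads fit similar genes, RSEM divides them.

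Columns were matched to samples by name. Of 51789 identifiers 51596 had a name in GENCODE vM21. Replicate pairs differed beyond sampling noise (chi-square per degree of freedom 4.12 to 6.79), which does not tell separate animals from separate preparations of the same RNA. Each library was counted as its own sample. Tests used edgeR 4.0.16 in R 4.3.3 (quasi-likelihood test, TMM factors, filterByExpr with minimum count 10 and minimum total count 15), the group as the one term, and p-values adjusted by Benjamini-Hochberg over 10397 tested genes, which held 99.7% of counts, at a threshold of 0.05. The SE is the log2 fold change over the square root of F. At a mean of at least 10 CPM the median SE was 0.13. CPM are relative to the TMM-scaled library size. The fit was also run on simulated counts with the same dispersion for all genes. Real genes differ in spread, so that run does not bear on single calls here.

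Genes were named by rule: the 6; Snph; of each list, called members (at most 4) and the 2 most abundant; the 2 genes most like each of the 6 (highest r); and tested genes within 100 kb. Values are given for those bearing on chemokines. Adam10, Adam17, Ccr1, Cxcr6, Cxcl1, Cxcl3, Cxcl9 and Ccl2 were added as ligands, receptors or proteases of the 6, with their values known. The 6 genes, the 15 other lists and the tests were chosen with earlier results of these data known. Alternatives were DESeq2 1.42.0, limma-voom (limma 3.58.1), RLE and upper-quartile factors, total counts, no filter, 5 CPM in 3 libraries, a replicate block and leaving out each library.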

Additional observations from a re-analysis of the deposited data

How the results depend on the processing

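Across 14 alternative fits the log2 fold change of Ccl6 kept its direction and was called in 11; with total counts only it was 0.26 (adjusted p = 0.0632, edgeR's quasi-likelihood test), the median of all genes then moving from 0.01 to -0.10, and relative to that median Ccl6 was at 0.36 in both. Leaving out each library gave 0.32 to 0.42. Cxcl2 turned to -0.10 without WT 1 and -0.11 without KO 3, its range with each library left out being -0.11 to 0.32. Ccl3 was called with no filter on low counts (-0.69, adjusted p = 0.0362). Cxcr2 and Mmp8 turned with total counts only (-0.039 and -0.045), and the Ccl3 to Ccl4 log2 ratio without WT 1 (0.20) and without KO 2 (0.17; -0.30 to 0.20 with each library left out), settings added after seeing the data. The KO-labelled means with total counts only were 2411 CPM for Ccl6 and 4.56 CPM for Ccl4. The reported 107 calls (25 higher, 82 lower) became 145 with DESeq2 (63 higher, 82 lower), 162 with total counts only (18 higher, 144 lower) and 287 with no filter (114 higher, 173 lower), so that calls lower in the KO-labelled libraries were 76.6%, 56.6%, 88.9% and 60.3%. Leaving out each library gave 11 to 29 higher, 35 to 68 lower and 49 to 97 in all: 57, 49 and 62 without WT 1, 2 and 3 and 67, 61 and 97 without KO 1, 2 and 3, of which 56, 47, 56, 60, 57 and 79 were among the 107; the fits had fewer samples. The replicate numbers share no stated origin, and deviations of same-numbered libraries correlated at -0.03, -0.00040 and -0.03 over 5935 genes, no library correlating best with its own number. A replicate block gave 92 calls (27 higher, 65 lower; 84 among the 107), with Ccl6 at 0.37 (adjusted p = 0.0208) and Ccl3 at -0.69 (adjusted p = 0.127), and changed no call among the 6 chemokine genes. Cxcl16 could not be tested at 5 CPM in 3 libraries. Causes of these shifts were not tested. Counts of 8 to 165 per library limit Ccl3, Ccl4, Ccl9 and Cxcl16.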
